A study of Mus musculus with 8 samples.

Results

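Cytosolic ribosomal proteins are the protein parts of the ribosome, which translates every mRNA that the nucleus exports. *Rpl* and *Rplp* genes encode the proteins of the large subunit, which forms peptide bonds, and *Rps* genes and *Rpsa* encode those of the small subunit, which reads the mRNA. Their mRNAs are among the most abundant of any cell, and most of them open with a run of pyrimidines, the terminal oligopyrimidine (TOP) element, through which growth signals and the RNA-binding protein LARP1 set their translation and stability. Dental pulp mesenchyme and odontoblasts secrete large amounts of collagen and dentin matrix and so carry a high load of translation.

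The genes were chosen by name from the 12148 genes of the table. A gene was kept when its identifier mapped to a protein-coding symbol of *Rpl* or *Rps* with a number, or to *Rplp0*, *Rplp1*, *Rplp2* or *Rpsa*. Kinases of the *Rps6k* type and pseudogenes were left out. In the annotation used, 83 protein-coding genes have such a name, and 81 of them are on the table, 49 of the large subunit and 32 of the small subunit. *Rpl3l* and *Rpl10l* were not analysed here, and *Rps4l* was left out because it is annotated as a transcribed pseudogene. The 81 genes are spread over 19 chromosomes of GRCm38, with 14 of them on chromosome 7.

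RNA was measured by RNA-Seq in 8 libraries of dental pulp from mandibular first molars of mice at P7 (postnatal day 7). The 4 control libraries, numbered 49 to 52, came from mice that carry Cre recombinase under the Osterix promoter and no other allele named in the labels. The 4 *Tgfbr2cko* libraries, 53 to 56, came from mice with the same Cre and *Tgfbr2* flanked by loxP sites (f/f), a design meant to delete the type II TGFβ receptor where the Osterix promoter has been active, as in the mesenchyme that gives rise to odontoblasts and osteoblasts. Left and right molars were put together for each extraction, the RNA was amplified from a low input, and nothing in the labels says whether a library was 1 animal, so the p-values measure the spread between these libraries. The titles carry a further number whose meaning is not given in the sources used here. Osterix-Cre 49 and 50 share the number 4, *Tgfbr2cko* 54 and 55 the number 2, and *Tgfbr2cko* 53 and 56 the number 3, so 4 libraries a group may hold fewer separate units.

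Between 8682872 and 13539670 reads per library were counted on the 12148 genes. *Tgfbr2* itself had log2 values of 7.16, 7.62, 7.64 and 7.52 among the control libraries, against 7.02, 7.00, 7.16 and 7.61 among the mutant libraries (log2 fold change -0.29 ± 0.17 (SE), limma adjusted p = 0.79), so the groups overlapped; a count over the whole gene also takes in exons that the deletion leaves. Mean log2 values of 8 mesenchyme and odontoblast markers lay between 9.88 and 11.33. The 7 enamel epithelium markers took 0.397% to 2.95% of the reads in 7 libraries and 19.3% in *Tgfbr2cko* 56, which stands apart. Values are log2 CPM (log2 of reads scaled to a common library total) unless reads or levels per length are named, and a difference is the mutant mean minus the control mean.

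The start of these genes carries the sequence for which their mRNAs are known. Promoter records of RefSeq on GRCm38.p6, 250 bases before to 50 bases after an annotated start, were found for 61 of the 81 genes, as 72 records. A run of at least 8 C or T that opens with C, on the sense strand and between 20 bases before and 50 bases after the start, was present in 68.1% of them and in 20% of all 32851 records. The ETS-type motif CCGGAAG, searched on both strands, was in 37.5% against 8.86%, and its reverse, CTTCCGG, can overlap the end of such a run. AAGATGG, the motif of YY1, was in 16.7% against 6.34%, and the TATA box TATAAA in 9.72% against 13.6%. The 30-base windows below were placed on the longest run found between 20 bases before and 50 bases after an annotated start, and need not hold that start. They are shown because the first 4 belong to genes that rose and fell together over the libraries and the last 4 to genes that did not, as described further on. Capitals mark the longest run of pyrimidines that opens with C.
*Rps6* (chr4:86857349-86857378, minus strand): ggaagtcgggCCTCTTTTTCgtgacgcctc
*Rpl26* (chr11:68901580-68901609, plus strand): cgtgtagttCTCTTTCCTTTTgcggccatc
*Rplp2* (chr7:141447637-141447666, plus strand): gcgtcagcgtCTTCCTTTCgccgccggacg
*Rpl11* (chr4:136053357-136053386, minus strand): cggaagtCTCCCTCTCTCTTCCTgttctcc
*Rpl4* (chr9:64173406-64173435, plus strand): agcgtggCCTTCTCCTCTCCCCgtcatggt
*Rpl13a* (chr7:45128722-45128751, minus strand): cgacaagaCCTCCTCCTTTCCCaggcggct
*Rps2* (chr17:24720083-24720112, plus strand): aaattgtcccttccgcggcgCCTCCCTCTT
*Rps3* (chr7:99483673-99483702, minus strand): gcggcgtcattgCTCCCgccctatatacct
The run is 10, 12, 9 and 16 bases long in the first 4 windows. It is 15, 14 and at least 10 bases long in *Rpl4*, *Rpl13a* and *Rps2*, where the run of *Rps2* ends at the edge of the record, and 5 bases long in *Rps3*. A long run was thus present in genes of both kinds, and a short one in this window says nothing of other starts.

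The mRNAs of the ribosomal proteins were abundant. Of the 81 genes, 66 were in the top 10% of the table by mean log2 value, and 2 were below the median gene. Per length of transcript, in reads per kilobase scaled to the same library total (RPKM), the median gene stood at 338, against 9.62 for the median of all genes. The middle of the distribution ran from 189 to 611, and the highest level was 129 times the lowest, although the ribosome holds most of these proteins in equal numbers.

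*Rps14*, a small-subunit protein whose haploinsufficiency causes the anemia of the 5q- syndrome, had the highest level per length of the longest transcript, 1640 ± 526 RPKM (SD over 8 libraries). *Rpl37a*, a small zinc-binding protein of the large subunit, followed with 1580 ± 469, and *Rpl13* with 1540 ± 189. These 3 neighbours in the order differed by less than their spread over libraries. At the other end stood *Rpl39l*, the paralog of *Rpl39* that is known from the testis, with 12.8 ± 2.31 RPKM, and *Rpl13a*, which can leave the ribosome and act in the interferon response, with 16.9 ± 2.21. *Rps15a* had 31.5 ± 16.2 RPKM over an annotated longest transcript of 5179 bases. Over its coding length of 390 bases it stood at 418 RPKM, place 63 of 81, so its low place depended on the length used. Over coding length the order changed for others too. *Rpl37a* was then at place 3, *Rps14* at place 4 and *Rpl13* at place 8, with *Rpl39l* at place 79 and *Rpl13a* last.

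Levels per length also rest on how reads were assigned. Mouse ribosomal protein genes have many processed pseudogenes with nearly the same sequence. The median gene shared 47.4% of its 50-base words with transcripts of other annotated genes, and 37 genes shared more than 50%. The share reached 95.1% in *Rpl35*, 93.8% in *Rpl5* and 86.7% in *Rps18*, and it was 0 in *Rpl39l*. *Rpl7a*, at 36.8 ± 11.3 RPKM, shared 81.2% of its words with 125 other genes, and *Rps2* shared 71.3% with 74. Over the 81 genes the share itself did not follow the level (Spearman rho 0.08), while the number of genes sharing words went with a lower level (rho -0.37). That number is not a count of pseudogenes, and a gene enters it once for each of its annotated transcript types. It was 540 for *Rpl7l1*, with 5 pseudogenes, and 94 for *Rps16*, with 6, while 121 of the 125 for *Rpl7a* were pseudogenes. Genes are not independent points, and what multimapping reads did to these levels was not tested.

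For none of the 81 mRNAs did a difference between Osterix-Cre and *Tgfbr2cko* pulp pass the test. In the limma test, 0 genes passed an unadjusted p of 0.05 in either direction, where 8.38% of all 12148 genes did, 3.3% as higher and 5.08% as lower in *Tgfbr2cko*. None was altered by the threshold of 1.5-fold with an unadjusted p under 0.05, against 5.77% of all genes, or had an adjusted p under 0.05, against 0.947%. With voom weights in limma the counts were also 0. Both genotypes overlapped in each of the 81 genes, while 5.27% of all genes had groups that did not overlap. Most of the 81 mRNAs moved together over the libraries (median Pearson r 0.90 between pairs), so they are not 81 separate chances. The counts of 0 were not tested against the shares of all genes.

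Differences between the means were small in both subunits. The mean was higher in *Tgfbr2cko* for 38 genes and lower for 43, with a median log2 fold change of -0.0045, beside -0.01 over all genes. It was 0.0037 over the large subunit and -0.02 over the small subunit. In 61 genes the log2 fold change was under 0.1 in size, and in 80 genes under 0.25. The standard errors ran from 0.15 to 0.36, with a median of 0.22, and the median 95% confidence interval from -0.48 to 0.48. For 57 genes the interval lay within 1.5-fold in both directions, and for 80 genes within 2-fold. Differences within these intervals could not be told from 0 with 4 libraries a group.

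**Figure D1:**
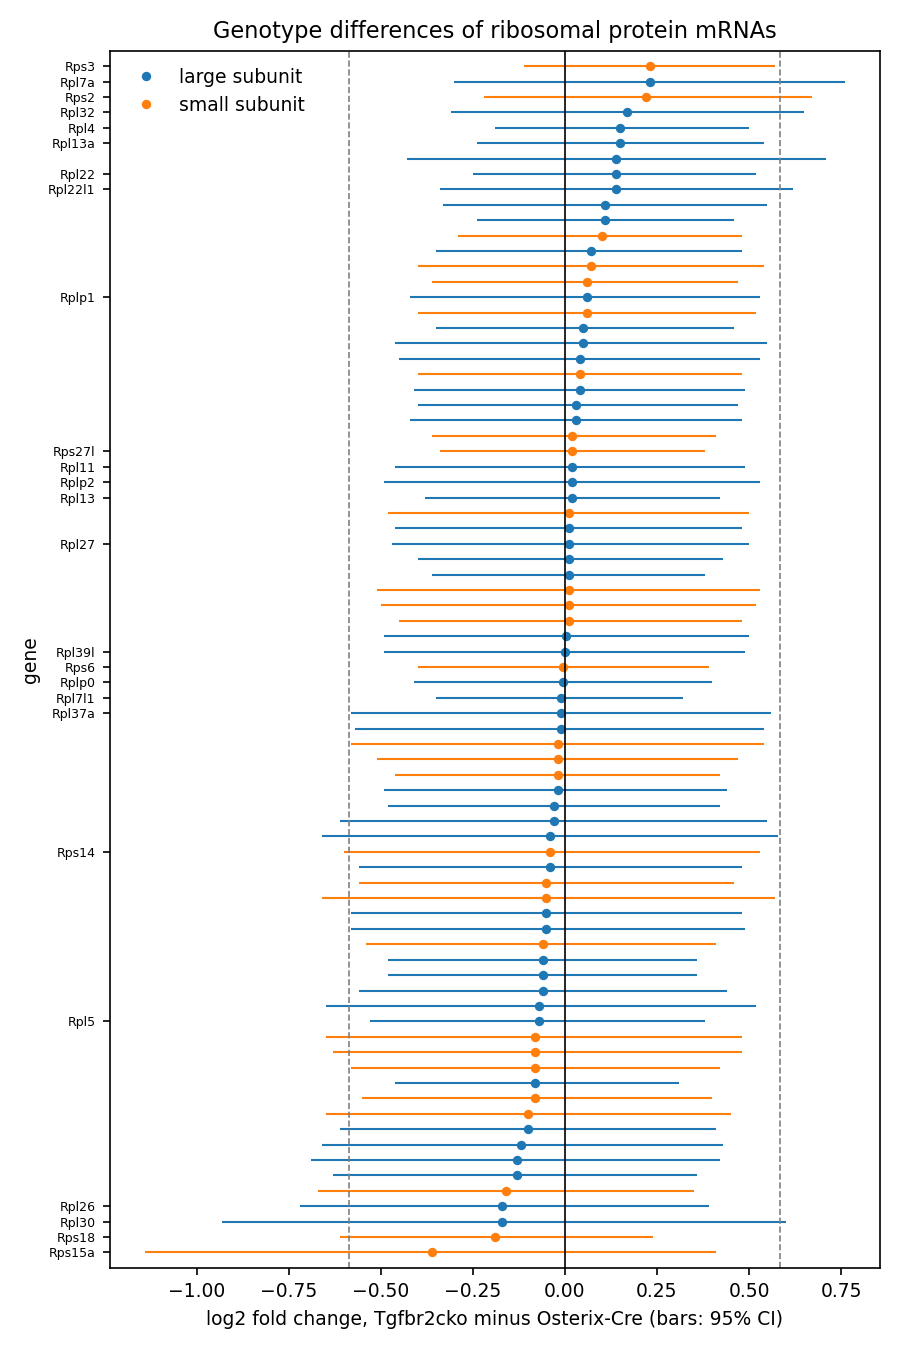
Log2 fold change of 78 of the 81 genes (x axis, *Tgfbr2cko* minus Osterix-Cre, n = 4 each), ordered by size, with 95% confidence intervals from limma, large subunit in blue and small subunit in orange. Dashed lines mark 1.5-fold, and the labelled genes are those shown that the naming rule given with the data processing picks. Every interval crosses 0, and *Rps15a* has the widest one, from -1.14 to 0.41.

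*Rplp0* encodes the stalk protein that anchors the elongation factor site, and is widely used as a reference gene. Its log2 values were 10.70, 10.39, 10.30 and 10.20 among the control libraries, against 10.55, 10.46, 10.35 and 10.23 among the mutant libraries. The groups interleaved, and the log2 fold change was -0.0045 ± 0.19 (SE; limma adjusted p = 0.998). The acidic stalk partners, which recruit translation factors, lay just as close. *Rplp1* had a log2 fold change of 0.06 ± 0.22 and *Rplp2* one of 0.02 ± 0.24.

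*Rps6* is the small-subunit protein that S6 kinases phosphorylate downstream of mTORC1. Its log2 values were 8.81, 8.60, 8.30 and 8.07 among the control libraries, against 8.70, 8.51, 8.39 and 8.17 among the mutant libraries. In both groups the values spanned about the same range, and the log2 fold change was -0.0045 ± 0.18 (limma adjusted p = 0.998). *Rpl27*, one of the genes assayed by the study as a reference in quantitative PCR, had log2 values of 8.26, 7.94, 7.48 and 7.28 among the control libraries, against 8.25, 7.65, 7.52 and 7.60 among the mutant libraries. Its means were close, with a log2 fold change of 0.01 ± 0.22 (limma adjusted p = 0.998), but its SD over the 8 libraries was 0.36, beside 0.17 for *Rplp0*.

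*Rps3*, which lines the mRNA entry channel and also acts in DNA repair, had the smallest p of the 81 genes. Its log2 values were 9.87, 9.60, 9.67 and 9.71 among the control libraries, against 9.96, 10.05, 9.92 and 9.84 among the mutant libraries. Only *Tgfbr2cko* 56 fell below the highest control. The log2 fold change was 0.23 ± 0.16 (limma p = 0.169, adjusted p = 0.842), and an exact permutation test (two-sided, 70 arrangements of the libraries) gave p = 0.0571, where 0.0286 is the smallest it can give. When library totals were taken without the reads of *Amelx*, *Ambn* and *Enam*, which encode enamel matrix proteins, the log2 fold change of *Rps3* was 0.31 and it passed an unadjusted p of 0.05. It was then the 1 member higher in *Tgfbr2cko*, against 6.59% of all genes. *Rps2*, its neighbour at the channel, had a log2 fold change of 0.22 ± 0.21 (limma adjusted p = 0.945). That of *Rps2* was 0.03 without Osterix-Cre 49 and 0.39 without Osterix-Cre 50. *Rps9*, the third protein of the channel, had one of 0.10 ± 0.18.

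*Rps15a* had the largest difference between means, and the largest spread. Its log2 values were 8.36, 7.87, 6.47 and 6.82 among the control libraries, against 7.50, 6.75, 7.33 and 6.49 among the mutant libraries. Osterix-Cre 49 and 50 were the highest and Osterix-Cre 51 the lowest. The log2 fold change was -0.36 ± 0.36 (limma adjusted p = 0.958). It was -0.04 without Osterix-Cre 49 and -0.67 without Osterix-Cre 51. *Rps18*, a head protein of the small subunit and a common reference gene, had log2 values of 9.57, 9.67, 9.26 and 9.24 among the control libraries, against 9.40, 9.65, 9.05 and 8.89 among the mutant libraries, a log2 fold change of -0.19 ± 0.20 (limma adjusted p = 0.964). It was -0.07 without *Tgfbr2cko* 56 and -0.32 without *Tgfbr2cko* 54.

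The other genes at the ends of the order showed the same overlap. *Rpl7a* had a log2 fold change of 0.23 ± 0.25, with its highest value, 5.79, in *Tgfbr2cko* 53 and its lowest, 4.43, in Osterix-Cre 51. *Rpl32* had 0.17 ± 0.22, *Rpl4* 0.15 ± 0.16, *Rpl13a* 0.15 ± 0.18 and *Rpl22* 0.14 ± 0.18, each with a log2 fold change in the positive direction that did not pass. Single libraries carried part of these values, since *Rpl7a* stood at 0.01 without *Tgfbr2cko* 53, *Rpl32* at 0.0048 and *Rpl22* at 0.01 without Osterix-Cre 52, and *Rpl4* at 0.08 and *Rpl13a* at 0.06 without *Tgfbr2cko* 54. With other libraries left out they reached 0.37 for *Rpl7a*, 0.32 for *Rpl32*, 0.24 for *Rpl22*, 0.22 for *Rpl4* and 0.23 for *Rpl13a*. Of those with lower means, *Rpl26* had -0.17 ± 0.26 and *Rpl30* -0.17 ± 0.35. Without Osterix-Cre 49, *Rpl26* stood at -0.0013 and *Rpl30* at 0.18, and without *Tgfbr2cko* 55 *Rpl30* stood at 0.14. Without *Tgfbr2cko* 53, *Rpl26* stood at -0.38 and *Rpl30* at -0.41. *Rpl26* and *Rpl11* are also known to act on the p53 pathway, *Rpl26* on its mRNA and *Rpl11* with *Rpl5* as inhibitors of MDM2. The pair that joins the 5S RNA to the ribosome stood at -0.07 ± 0.21 for *Rpl5* and 0.02 ± 0.22 for *Rpl11*.

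Paralogs with a restricted pattern gave no call either. *Rpl22l1*, the paralog that rises when *Rpl22* is lost, had a log2 fold change of 0.14 ± 0.22. *Rps27l*, a p53 target, had 0.02 ± 0.17, and *Rpl7l1*, which works in large-subunit assembly, -0.01 ± 0.15. *Rpl39l* was counted with only 73 to 146 reads per library. Of the 8 genes of the polypeptide exit tunnel, 0 passed, with a median log2 fold change of -0.05. Among the 17 genes mutated in Diamond-Blackfan anemia, a congenital failure of red cell production, 0 passed and the median was 0.01. With 8.38% of all genes passing, lists of this size would hold about 1 such gene or fewer, so a count of 0 in them says little.

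What varied was the library. Reads on the 81 genes made up 4.32%, 3.69%, 2.80% and 2.50% of the counted reads in Osterix-Cre 49 to 52, and 4.15%, 3.13%, 3.10% and 2.70% in *Tgfbr2cko* 53 to 56. Over these totals the groups covered nearly the same range. The highest share was 1.73 times the lowest, while the group means, 3.33% ± 0.83 (SD, n = 4) and 3.27% ± 0.62 (SD, n = 4), gave a difference of -0.0616 percentage points. With the enamel matrix reads taken out of the totals, *Tgfbr2cko* 56 moved from 2.70% to 3.34%, and Osterix-Cre 49 from 4.32% to 4.42%. The mutants then ran from 3.14% to 4.17%, and the lowest shares were those of Osterix-Cre 51 and 52, at 2.81% and 2.52%, and the difference in means was 0.095 percentage points. In bulk tissue, fewer cells with high ribosomal protein expression and less of these mRNAs per cell cannot be told apart.

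**Figure D2:**
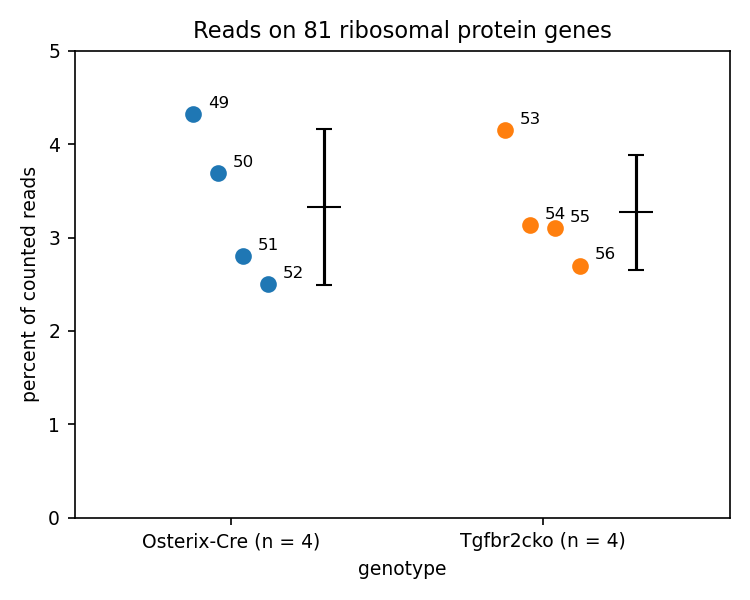
Percent of counted reads that fell on the 81 genes (y axis) in each library, labelled by its number, by genotype, with the mean ± SD beside the points (n = 4 each). Controls run from 2.50% to 4.32% and mutants from 2.70% to 4.15%, so the groups cover each other.

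Most of the genes moved together between libraries. The median gene had an SD of 0.35 over the 8 libraries, beside 0.29 for all genes and 0.24 for the 1361 other genes whose mean log2 value reached 7, and its highest library was 1.92 times its lowest. Of the 81 genes, 75 had their highest value in Osterix-Cre 49 or *Tgfbr2cko* 53, and 70 had their lowest in Osterix-Cre 52 or *Tgfbr2cko* 56. After each library was centred on the median of the 81 genes, the SD of the median gene fell to 0.13, whereas that of all genes rose to 0.42; a centre taken from the 81 genes favours them by construction. On this scale, too, 0 of the 81 genes passed an unadjusted p of 0.05 between the genotypes, against 4.14% of all genes. The median Pearson r between pairs of the genes over the 8 libraries was 0.90, as a description, beside 0.73 between pairs of the 17 other TOP mRNAs, 0.16 between pairs of all genes and 0.60 between pairs of 75 mitochondrial ribosomal protein genes; values of 1 library share its depth and the make-up of its tissue, which differed between libraries. It was 0.90 within the large subunit and 0.89 within the small subunit, and 0.91 after each genotype was centred on its own mean.

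Both subunits kept a near constant ratio. Reads on large-subunit genes were 1.21 to 1.29 times those on small-subunit genes in the 8 libraries, with a control mean of 1.24 ± 0.0378 (SD, n = 4) and a mutant mean of 1.26 ± 0.00881 (SD, n = 4). The ratio moved by 1.07 times between its ends, and the share of reads by 1.73 times.

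**Figure D3:**
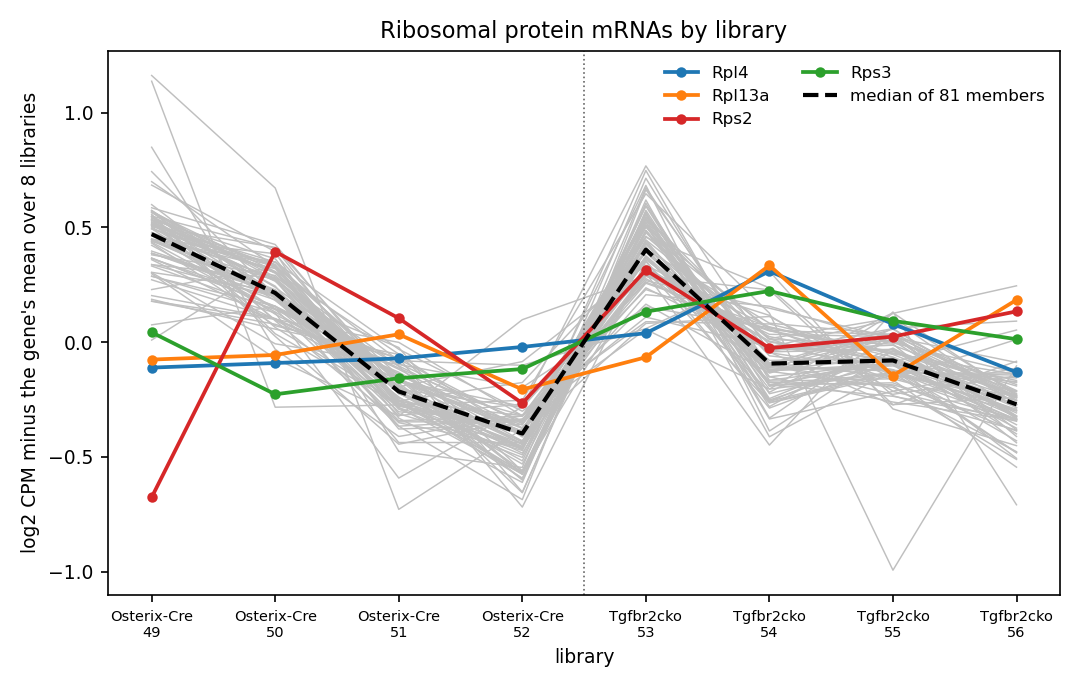
Log2 CPM of each of the 81 genes minus its own mean over the 8 libraries (y axis) by library (x axis); the lines only join values of 1 gene and the libraries have no order within a genotype. The median (dashed) is highest in Osterix-Cre 49 and *Tgfbr2cko* 53 and lowest in Osterix-Cre 52, and the coloured lines of *Rpl4*, *Rpl13a*, *Rps2* and *Rps3* leave the bundle.

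A few genes did not follow the rest. In 63 genes the Pearson r with the mean of the other 80 over the 8 libraries was over 0.9, and in 4 it was under 0.5. These were *Rpl13a* (-0.13), *Rpl4* (-0.08), *Rps2* (-0.06) and *Rps3* (0.24). *Rpl4*, which reaches into the exit tunnel, was nearly flat, with log2 values of 9.61, 9.63, 9.65 and 9.70 among the control libraries, against 9.76, 10.03, 9.80 and 9.59 among the mutant libraries. *Rps2* had log2 values of 7.19, 8.26, 7.97 and 7.60 among the control libraries, against 8.18, 7.84, 7.89 and 8.0 among the mutant libraries. It was at its lowest in Osterix-Cre 49, the library where 42 of the 81 genes were at their highest. *Rpl13a* had log2 values of 4.06, 4.08, 4.17 and 3.93 among the control libraries, against 4.07, 4.47, 3.99 and 4.32 among the mutant libraries, on 137 to 272 reads, so its values carry more counting error than those of the other 3.

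The genes with the smallest spread over libraries were *Rpl4* (SD 0.15), *Rps3* (SD 0.16) and *Rplp0* (SD 0.17). *Rps15a* (SD 0.68) and *Rpl30* (SD 0.65) had the largest. *Rpl30* had log2 values of 7.45, 6.03, 6.04 and 6.06 among the control libraries, against 6.96, 6.44, 5.32 and 6.21 among the mutant libraries. Osterix-Cre 49 stood far above the other controls.

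The spread went with the length of the coding sequence. The median SD was 0.38 over the 27 genes with a coding length under 400 bases, 0.35 over the 29 from 400 to 600 bases and 0.30 over the 25 longer ones, and Spearman's rho over the 81 genes was -0.43, as a description. With transcript length rho was -0.28 but Pearson's r 0.02, and with the mean log2 value rho was -0.30. Short transcripts outside the ribosome were also highest in Osterix-Cre 49 and *Tgfbr2cko* 53, but lowest in Osterix-Cre 51 and *Tgfbr2cko* 55. Over 110 other genes with a longest transcript under 700 bases whose mean log2 value reached 4, the median stood above the library's median gene by 2.0, 1.77, 1.36 and 1.42 in Osterix-Cre 49 to 52 and by 1.84, 1.43, 1.39 and 1.53 in *Tgfbr2cko* 53 to 56. For 4316 genes of 1500 to 4000 bases it lay between 0.68 and 0.74 in all 8. For 3068 genes of 4000 bases or more it was 0.43 in Osterix-Cre 49 and 0.45 in Osterix-Cre 50 and *Tgfbr2cko* 53. In the other libraries it was 0.47 to 0.55. The part of transcript length in the movement of the ribosomal protein mRNAs was not tested.

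**Figure D4:**
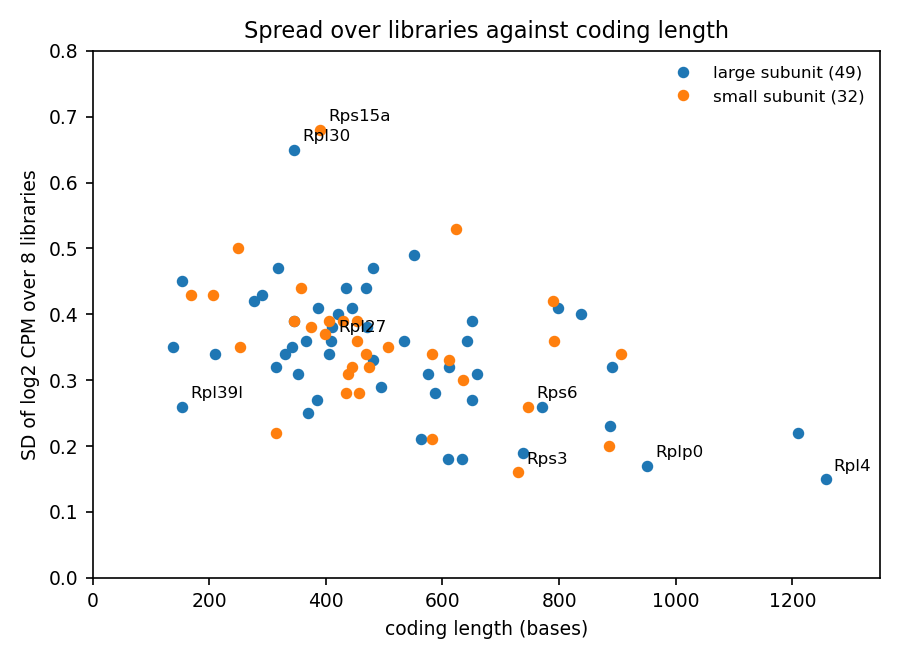
SD of log2 CPM over the 8 libraries (y axis) against coding length in bases (x axis) for the 49 large-subunit and 32 small-subunit genes, each point 1 gene. *Rpl4*, the longest, has an SD of 0.15, while *Rps15a* and *Rpl30*, both under 400 bases, have 0.68 and 0.65.

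Other genes of the translation machinery showed how far this movement reached. The 17 other TOP mRNAs, which encode elongation and initiation factors and the like, had mean log2 values of 8.26, 8.16, 7.87 and 7.84 among the control libraries, against 8.28, 8.10, 7.98 and 7.82 among the mutant libraries. They were thus high in the same libraries over a smaller range, 0.46 beside 0.84 for the ribosomal protein mRNAs. The 8 snoRNA host genes analysed, spliced TOP transcripts whose introns give small nucleolar RNAs, ranged over 1.12, from 3.71 in Osterix-Cre 52 to 4.83 in *Tgfbr2cko* 53. Their median log2 fold change was 0.15, and 0 of the 8 passed. The 75 mitochondrial ribosomal protein genes, whose products form the ribosome of mitochondria, had means of 5.79, 5.74, 5.55 and 5.39 among the control libraries, against 5.80, 5.73, 5.52 and 5.36 among the mutant libraries. Their range was 0.44, close to that of the other TOP mRNAs, with the highest means again in Osterix-Cre 49 and *Tgfbr2cko* 53. Of the ribosome components outside the name pattern, *Fau* had a log2 fold change of -0.08 ± 0.21 and *Rack1* one of -0.0017 ± 0.20, and both were highest in Osterix-Cre 49.

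The means of the lists of genes that build and regulate ribosomes had ranges of different size. The mean of the 37 assembly factors ranged over 0.40, that of the 13 RNA polymerase I genes over 0.32, and that of the 15 mTORC1, TOP and MYC regulators over 0.23. The mean of the 8 *Rps6* kinase genes ranged over 0.43 and that of the 8 genes of the ribosomal stress response over 0.52, about as far as the other TOP mRNAs or farther. Gene by gene the spread of the first 3 lists was much like that of the other TOP mRNAs, with a median SD of 0.22, 0.26 and 0.25 beside 0.26. Among the assembly factors, 1 of 37 passed an unadjusted p of 0.05, where 8.38% of all genes did. It was *Wdr12* of the PeBoW complex, which was higher in *Tgfbr2cko* (log2 fold change 0.48 ± 0.17, limma adjusted p = 0.339). Among the regulators, 1 of 15 passed, a share below that of all genes. It was *Myc*, which drives transcription of ribosomal genes. Its log2 values were 4.69, 4.66, 5.10 and 4.06 among the control libraries, against 5.67, 5.29, 5.16 and 4.92 among the mutant libraries, a log2 fold change of 0.63 ± 0.23 (limma adjusted p = 0.338). Neither passed after adjustment over all genes. *Larp1* had a log2 fold change of -0.05 ± 0.15.

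The remaining lists of the translation machinery held few calls. None of the 13 RNA polymerase I genes, 8 *Rps6* kinase genes or 8 genes of the p53 response to ribosomal stress passed an unadjusted p of 0.05. Of the 75 mitochondrial ribosomal protein genes, 1 passed as lower, against 5.08% of all genes. It was *Mrpl48* (log2 fold change -0.63 ± 0.21, limma adjusted p = 0.248), and the list median was -0.03. The 12 reference genes outside the ribosome had a median log2 fold change of 0.01, and 0 of them passed. The median SD over the 8 libraries was 0.29 for these 12 and 0.28 for the 7 ribosomal reference genes.

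Markers of the tissue moved the other way in part. The mean log2 values of the 8 mesenchyme and odontoblast markers were 10.52, 10.45, 11.01 and 11.33 in Osterix-Cre 49 to 52 and 10.19, 10.74, 10.79 and 9.88 in *Tgfbr2cko* 53 to 56. They were highest in Osterix-Cre 52, where 57 of the 81 ribosomal protein mRNAs were at their lowest, but they were lowest in *Tgfbr2cko* 56, where 13 were. Enamel markers took 19.3% of the reads in *Tgfbr2cko* 56, 2.95% in *Tgfbr2cko* 55 and 2.33% in Osterix-Cre 49, and under 1% elsewhere. All 5 erythroid and 5 oral epithelium markers were analysed; their means were highest in *Tgfbr2cko* 56, at 8.44 and 8.55, beside 5.95 to 7.5 and 5.11 to 7.08 elsewhere. The 3 of 5 leukocyte markers analysed had means of 6.07, 6.02, 6.17 and 5.76 in Osterix-Cre 49 to 52 and of 5.79, 5.53, 5.49 and 4.63 in *Tgfbr2cko* 53 to 56. Of these 3 leukocyte markers 2 passed an unadjusted p of 0.05 as lower in *Tgfbr2cko*, where 5.08% of all genes did. They were *Ptprc* (log2 fold change -0.96 ± 0.22, limma adjusted p = 0.066) and *Cd68* (-0.70 ± 0.31). *Csf1r* (-0.27 ± 0.22) did not pass. Of the oral epithelium markers 2 passed as higher, where 3.3% of all genes did. They were *Krt17* (1.67 ± 0.57) and *Cdh1* (1.15 ± 0.50), both at their highest in *Tgfbr2cko* 56. *Krt14* and *Krt5* also had higher means and *Epcam* a lower one (-0.43 ± 0.55), but these did not pass. Of the 8 mesenchyme and odontoblast markers 1 passed as lower, the collagen *Col1a2* (-1.22 ± 0.43). Of the 7 enamel markers 1 did, the protease *Klk4*, where 5.08% of all genes passed as lower. *Klk4* also passed after adjustment (-2.71 ± 0.24, limma adjusted p = 0.000136), as 0.947% of all genes did. In the enamel list *Ambn* (1.45 ± 0.97), *Amelx* (1.39 ± 1.10) and *Enam* (1.63 ± 1.07) had higher means in *Tgfbr2cko*. *Mmp20* (-0.38 ± 0.35), *Amtn* (-0.89 ± 1.06) and *Odam* (-0.76 ± 1.21) had lower ones. None of these others passed. None of the erythroid, endothelial or Schwann cell markers analysed passed. The part of these markers in the movement of the ribosomal protein mRNAs was not tested.

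**Figure D5:**
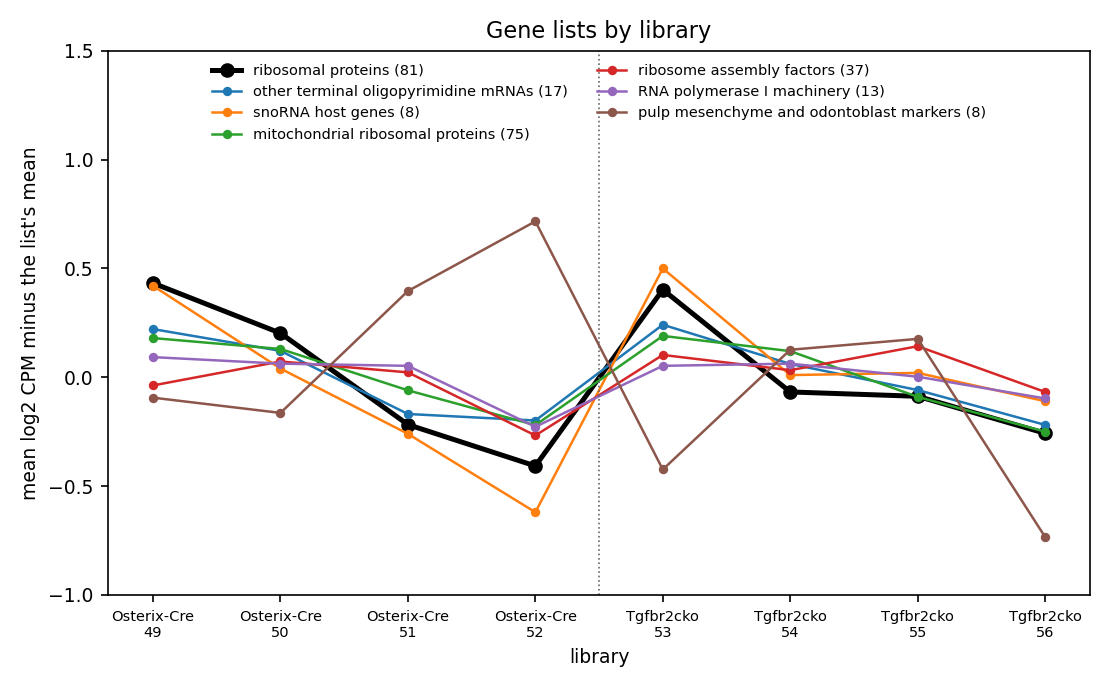
Mean log2 CPM of each gene list minus its mean over the 8 libraries (y axis) by library (x axis), with the number of genes analysed in brackets; lines only join values of 1 list. Ribosomal protein mRNAs, other TOP mRNAs, snoRNA hosts and mitochondrial ribosomal proteins share their highest libraries, Osterix-Cre 49 and *Tgfbr2cko* 53. The range is 0.46 for other TOP mRNAs, 0.44 for mitochondrial ribosomal proteins, 0.40 for assembly factors and 0.32 for RNA polymerase I genes.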

How the data were processed

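Dental pulp RNA of 8 libraries, 4 Osterix-Cre and 4 *Tgfbr2cko*, was analysed. The authors aligned the reads with HISAT2 2.1.0 after fastp 0.21.0, counted them per gene with featureCounts (Subread 2.0.1), filtered the genes with the CLEAR workflow, and deposited voom values, which are log2 CPM (log2 of each count plus 0.5, scaled to a common library total); the versions and the build GRCm38.p5 are from the submitters' processing notes, and the strandedness of counting is not given in the sources used here. All 97184 values turned back into whole reads by that formula, within 3.61e-08 of a whole number, and these reads gave the shares and RPKM levels. Totals were 9511517 to 10227345 reads per control library and 8682872 to 13539670 per mutant library, so 3 reads are 0.222 to 0.346 CPM; reads without molecular identifiers are not independent molecules, and this covers counting error only.

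The deposited log2 values of all 12148 genes were fitted in R 4.3.3 with limma 3.58.1 (two-sided moderated test, intensity trend, all 8 libraries, Benjamini-Hochberg adjustment over all genes). A gene was altered at an unadjusted p under 0.05 and at least 1.5-fold. On simulated data for this comparison with 200 of 12148 genes changed, the test gave an unadjusted p under 0.05 to 70% of genes changed 1.5-fold and 89.5% changed 2-fold, and an adjusted p under 0.05 to 0% and 47%; of unchanged genes 5.26% and 5.36% passed unadjusted. In the simulation the changed genes were not drawn from the most abundant ones, where many ribosomal protein genes lie. The spread was drawn separately for each gene, without movement shared within a library. Single genes were also compared by exact permutation tests. Identifiers, lengths (longest protein-coding transcript, coding sequence, exon union) and positions came from GENCODE M21 on GRCm38, and 12144 identifiers had a symbol. Words of 50 bases were compared with all annotated transcripts, and promoter records came from RefSeq.

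The members and all gene lists were chosen with earlier results of these data known. Members named are *Rplp0*, *Rps6* and *Rpl27*, the 5 largest differences each way, the 10 smallest p, the 3 highest and 3 lowest levels per length, the 3 largest and 3 smallest SDs, and the stalk, 5S partner and paralog lists; genes of other lists were named where they had the smallest p of a list or a result turned on them. Some of the genes that this rule names are not reported here; they stay in all counts and fits. Figures were drawn with matplotlib 3.10.9 in Python 3.11.15.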

Additional observations from a re-analysis of the deposited data

Results flagged for a closer look

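In 56 groups of 4 libraries, formed by the 27 named genes and the share of reads in each genotype, the library farthest out was set against the others, and chance alone would mark about 1 in 20. Of these, 2 had a library set apart from the nearest other by more than Dixon's critical share of the group's range. *Rpl30* had a log2 value of 7.45 in Osterix-Cre 49, where the other controls had 6.03 to 6.06. *Rpl26* had a log2 value of 8.90 in *Tgfbr2cko* 53, where the other mutants had 8.0 to 8.13. Both libraries were the highest of their genotype for most of the ribosomal protein mRNAs.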

How the results depend on the processing

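Under 17 alternative fits, including one chosen after seeing the data that centred each library on the median of the 81 genes, the counts of members called stayed at 0, except that 1 was higher when enamel matrix reads were left out of the totals (*Rps3*, 0.31). Centred on the members, 4.14% of all genes and 0 members passed an unadjusted p of 0.05. The median log2 fold change over the members ran from -0.15 (without *Tgfbr2cko* 53) to 0.14 (without Osterix-Cre 49) and was 0.07 without enamel reads and 0.11 with libraries of 1 title number averaged; the difference in the share of reads ran from -0.355 to 0.269 percentage points over the same libraries left out, and was 0.095 without enamel reads and 0.163 with title numbers averaged. The sign of both therefore rests on single libraries and on these choices. Co-variation, whose alternatives were chosen after seeing the data, kept a median r of 0.85 to 0.92. The median level per length was 338 RPKM, 184 over the exon union and 691 over the coding length.

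Of 255 values of named genes under the alternatives, 21 had the other sign, in *Rplp0*, *Rps6* and *Rpl27*, with values near 0, and in *Rpl30* (-0.17). Leaving out single libraries, *Rpl27* ran from -0.15 to 0.19, *Rpl30* from -0.41 to 0.18, *Rplp0* from -0.07 to 0.10 and *Rps6* from -0.13 to 0.12. *Rplp0* was 0.04 with library weights, 0.07 without enamel reads, 0.05 with title numbers averaged and 0.01 centred on the members; *Rps6* was 0.05, 0.07, 0.08 and 0.01, and 0.03 after quantile normalization. Without Osterix-Cre 49, *Rps15a* moved from -0.36 to -0.04 and *Rps2* from 0.22 to 0.03. Over all single libraries left out, *Rps15a* ran from -0.67 to -0.04 and *Rps2* from 0.03 to 0.39. No paired analysis was possible because the genotypes share no library number and only 1 title number, 2. Differences under about 1.5-fold are near the limit that 4 libraries a group allow.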

Other observations

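Some genes that every cell uses had few counted reads. *Rpl13a*, a common reference gene, had 137 to 272 reads per library, and *Gapdh*, named here after its values were seen, had 19 to 83, beside 11308 to 17271 for *Rplp0*. *Fau*, which encodes a ubiquitin-like protein fused to a small-subunit protein, had 1777 to 3111. The log2 fold change of *Gapdh* was 0.61 ± 0.36 (limma adjusted p = 0.779).

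*B2m*, a reference gene of the study's quantitative PCR, had log2 values of 8.86, 8.84, 8.36 and 8.22 among the control libraries, against 8.96, 8.51, 8.10 and 7.86 among the mutant libraries. It was high in Osterix-Cre 49 and *Tgfbr2cko* 53, as the ribosomal protein mRNAs were, with an SD of 0.40 over the 8 libraries. *Actb* had an SD of 0.50 and a log2 fold change of 0.26 ± 0.29 (limma adjusted p = 0.971). *Rplp0* and *Rpl4*, with SDs of 0.17 and 0.15, varied less in these 8 libraries than *Rpl27*, with 0.36; the differences between these SDs were not tested.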
